A study of Mus musculus with 20 samples.

Results

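The transcripts of 4 cytoskeletal genes were followed through every library of the series, namely Actb (ENSMUST00000100497), Actg1 (ENSMUST00000071555), Vim (ENSMUST00000028062) and Tubb5 (ENSMUST00000001566). They were chosen by identifier from the 15354 transcripts listed in any file, and all 4 were listed in all 20 files. The rule of choice uses no values, but it was set with earlier results of these data known. The libraries hold ribosome-protected fragments of mouse embryonic fibroblasts (MEFs, strain C57BL/6J) in 3 backgrounds, each either fed or starved of amino acids. Control cells carry no treatment in their labels. Ogt knockout cells, which lack the enzyme that attaches the sugar O-GlcNAc to proteins inside the cell, were made with 0.5 µM 4-OHT for 24 h and then kept for 24 h in fresh medium. The labels name neither the allele nor the recombinase, and give 4-OHT to the knockout cells only, so an effect of 4-OHT and one of the knockout cannot be told apart. The third background was given 0.1 µM Thiamet-G, an inhibitor of the enzyme that removes O-GlcNAc, for 16 h. Each lysate came from pooled dishes. Starved cells spent 2 h in DMEM with a serum that the labels abbreviate as DFBS and do not explain, and all cells had been grown in DMEM with fetal bovine serum. An effect of that change of serum and one of amino acid loss cannot be told apart. Ribo-seq, which samples ribosomes with no selection for eIF3, has 12 libraries, 2 for each of 6 groups. The second assay, called eIF3-80S-seq here, samples 80S ribosomes that carry the initiation factor eIF3, and has 8 libraries. Of these, control cells gave 2 fed and 2 starved ones, and each of the other 4 groups gave 1. The series title concerns O-GlcNAc on the eIF3a subunit and reinitiation of translation under stress. Nothing in the labels ties replicates to separate cultures, and the p-values reflect how far libraries of a group differ, possibly for technical reasons. In the eIF3-80S fit that joins all backgrounds, they also reflect how far the starvation difference varies between backgrounds. One label of the fed control Ribo-seq library with replicate number 2 in its title gives replicate 1 in its description, and the title was followed. The targeted gene, Ogt, and markers of other cell types are not analysed here, and the marker of mesenchymal cells among the 4 transcripts, Vim, was listed in every library.

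Actb and Actg1 encode beta-actin and gamma-actin, the actins of non-muscle cells, which assemble into the filaments of the cell cortex and of stress fibres. Vim encodes vimentin, the main intermediate filament protein of fibroblasts, and Tubb5 encodes a beta-tubulin that pairs with alpha-tubulin to build microtubules. The level of soluble actin feeds back on transcription through the coactivator MRTF and the serum response factor, which binds the CArG box, and free tubulin feeds back on the stability of tubulin messages while they are being translated. Because these proteins are abundant, their messages occupy many ribosomes in fibroblasts, and Actb and Actg1 are often taken as reference transcripts.

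In the RefSeq annotation of GRCm38.p6, Actb lies on chromosome 5 from 142903115 to 142907976. Actg1 is on the minus strand of chromosome 11 from 120345687 to 120348495, Vim on the plus strand of chromosome 2 from 13574311 to 13582826, and Tubb5 on the minus strand of chromosome 17 from 35833920 to 35838301. The steps between RPKM values (reads scaled to transcript length and to library size) gave a coding length of 1128 nt for both actins, 1401 nt for Vim and 1335 nt for Tubb5. Without the stop codon these lengths correspond to 375 residues for each actin, 466 for vimentin and 444 for the tubulin. The lengths behind the RPKM are thus those of coding sequence. The actins differ at few residues and their coding sequences are alike, and how reads that fit both were counted is not given in the sources used here, so the split between Actb and Actg1 is uncertain.

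The 130 bases before the RefSeq start of each gene, on GRCm38.p6 and 5′ to 3′ on the gene's own strand, are shown for the 3 of the 4 genes that matched in the promoter table, because in Ribo-seq footprints Actg1 and Tubb5 were each other's most alike transcript and Vim ranked near them. Capitals mark the 5 letters CCAAT, searched on both strands as CCAAT and ATTGG, and the CArG box, a palindromic motif that reads the same way on both strands.
Actg1, chr11:120348496-120348625, minus strand: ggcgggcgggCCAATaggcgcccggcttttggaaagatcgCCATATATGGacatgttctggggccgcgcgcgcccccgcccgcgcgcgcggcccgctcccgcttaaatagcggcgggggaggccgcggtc
Vim, chr2:13574181-13574310, plus strand: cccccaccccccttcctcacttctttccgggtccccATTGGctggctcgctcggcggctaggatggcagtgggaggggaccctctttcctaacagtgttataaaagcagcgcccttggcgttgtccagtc
Tubb5, chr17:35838302-35838431, minus strand: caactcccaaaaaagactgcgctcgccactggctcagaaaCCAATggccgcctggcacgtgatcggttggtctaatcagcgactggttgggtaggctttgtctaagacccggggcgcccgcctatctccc
A CCAAT match began 120 bases before the start in Actg1 and 90 bases before it in Tubb5, and in Vim the match on the other strand spanned the bases from 94 to 90 before the start. The CArG box of Actg1 spanned the bases from 90 to 81 before the start. Of 32851 mouse promoter windows of the same length, 22.4% held CCAAT on either strand and 0.81% held a CArG box, and these 2 motifs did not overlap in the windows shown. The letters TATAA were counted as well, in 12.7% of the windows on either strand, and are not marked. The Vim window holds them. Matches describe the sequence only, and footprints do not measure transcription.

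Coding reads, recovered as whole numbers from the RPKM steps, totalled 844403 to 5846130 per Ribo-seq library and 52148 to 359282 per eIF3-80S library. The complete set of Ribo-seq files shared 8373 transcripts, against 1679 shared by the complete set of eIF3-80S files. In every eIF3-80S file 0.00% of the recovered transcripts had fewer than 5 reads. Recovered transcripts held 67.4% to 96.73% of the coding reads there, so a transcript that such a file does not list may have reads. The Ribo-seq libraries fall into 2 sets of 6 that follow the replicate number in their file names, which equals that of the titles except for the starved Thiamet-G libraries, where the numbers are exchanged. Fewer than 5 reads stood behind at most 0.07% of the recovered transcripts in the files numbered 1, and behind 11.82% to 19.69% in the files numbered 2. All 4 transcripts were higher on average in the files numbered 1, on the log2 scale by 0.77 for Actb, 0.95 for Actg1, 1.48 for Vim and 1.13 for Tubb5. Of the 8360 transcripts tested that were listed in every Ribo-seq file, 83.9% had a lower value of that difference than Actb, 88.5% than Actg1, 96.6% than Vim and 92.3% than Tubb5. Pair values within a file number are therefore given beside the pooled ones, and the part of this split in the results was not tested.

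Actb had the highest level per length in Ribo-seq and Tubb5 the lowest, with Actg1 and then Vim between them. Actb stood at 3199 ± 1750 RPKM (SD, n = 12 libraries), with a lowest value of 1034, a median of 2839 and a highest of 6372. Actg1 stood at 2193 ± 1303 RPKM, from 789 through a median of 1835 to 4613. Vim stood at 993 ± 904 RPKM, from 270.2 through a median of 639 to 3221, which was the widest spread relative to the mean. Tubb5 stood at 587 ± 404 RPKM, from 156 through a median of 447 to 1518. Neighbours in this order lie closer than their spread over all libraries, but within a library the order was steady. It was Actb, Actg1, Vim and then Tubb5 in 16 of 20 libraries of both assays. Actg1 exceeded Actb in replicate 2 of the starved Thiamet-G Ribo-seq libraries and in replicate 2 of the starved control eIF3-80S libraries. Tubb5 exceeded Vim in replicate 1 of the same groups. In eIF3-80S-seq the mean levels followed the same order, at 3967 ± 594 RPKM for Actb, 3419 ± 629.6 RPKM for Actg1, 1362 ± 735 RPKM for Vim and 979 ± 405 RPKM for Tubb5 (SD, n = 8 libraries). Both assays thus placed the actins above Vim and Tubb5 on average. Together the 4 transcripts took up 0.273% to 1.89% of coding reads in Ribo-seq and 0.944% to 1.62% in eIF3-80S-seq. Actb ranked between 10 and 233 from the top in Ribo-seq and between 7 and 32 in eIF3-80S-seq.

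**Figure D1:**
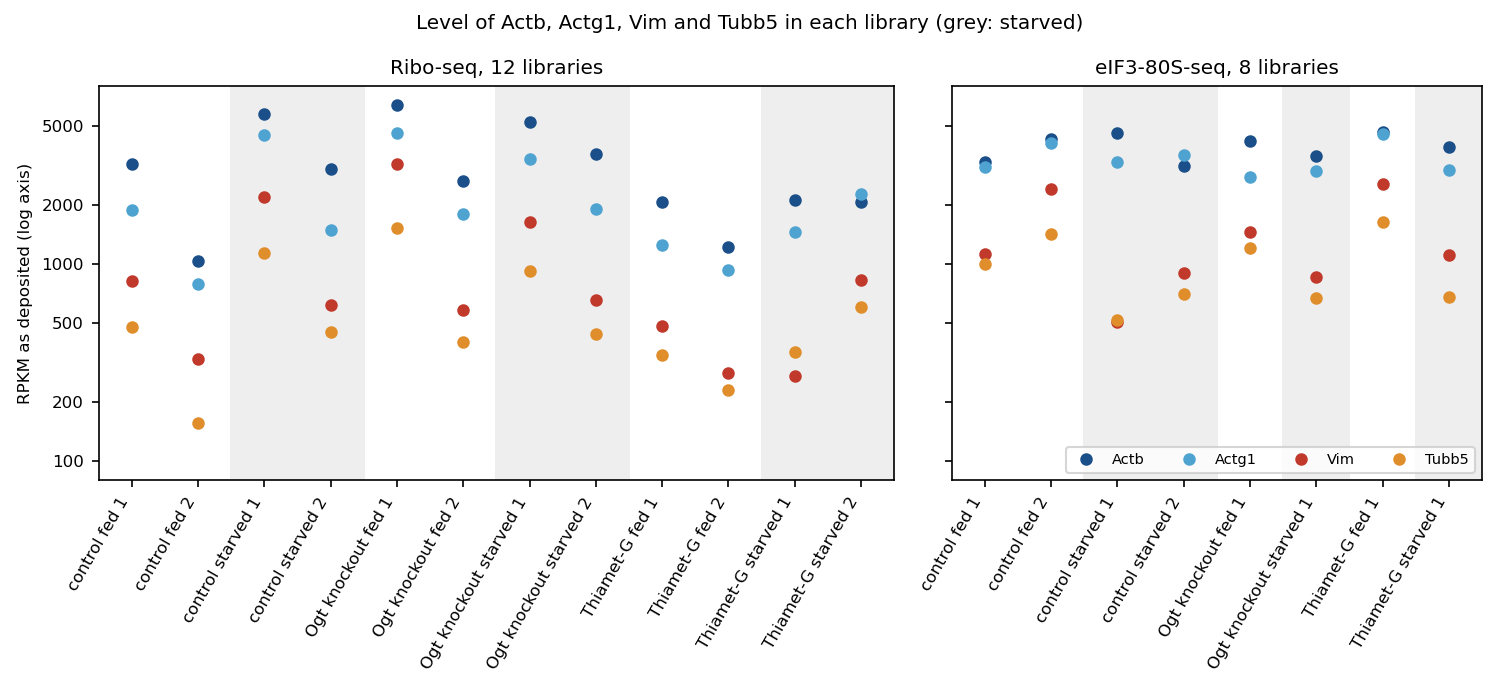
Level of each transcript in RPKM as deposited, on a log axis, in the 12 Ribo-seq libraries (left) and the 8 eIF3-80S libraries (right), with 1 point per library and starved groups on grey. Actb was on top in 18 of 20 libraries, and in the eIF3-80S libraries Vim and Tubb5 sat lower on every grey column than in any fed library.

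On eIF3-bound ribosomes, Vim and Tubb5 were lower in starved than in fed cells while both actins differed less. Every starved library lay below every fed one for Vim and for Tubb5, in control, knockout and Thiamet-G cells alike. The fitted log2 difference was -1.21 for Vim and -1.09 for Tubb5, against -0.20 for Actb and -0.24 for Actg1. None of the 4 passed the limma test across all 7734 transcripts, of which 0.284% were called. Vim and Tubb5 passed it among the 1679 transcripts listed in every eIF3-80S library, of which 6.19% were called lower. With limma-voom they passed as well, but not without the shallowest library (adjusted p 0.116 for Vim and 0.0576 for Tubb5).

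Vim had 1127 and 2394 RPKM in the fed control libraries and 506 and 900.1 RPKM in the starved ones. In knockout cells it had 1450 RPKM fed and 858 RPKM starved, and in Thiamet-G cells 2543 RPKM fed and 1115 RPKM starved, with 1 library for each of these values. The lowest fed value, 1127 RPKM, and the highest starved value, 1115 RPKM, were nearly equal, and on the rescaled values used for testing the groups did not overlap either. Tubb5 had 996 and 1414 RPKM in the fed control libraries and 517 and 707 RPKM in the starved ones. In knockout cells Tubb5 had 1202 RPKM fed and 669 RPKM starved, and in Thiamet-G cells 1643 RPKM fed and 684 RPKM starved. For Tubb5 the fed and starved libraries were well apart, with the starved values within 517 to 707 RPKM. Of the 1679 transcripts listed in every eIF3-80S library, 10.1% had all 4 starved libraries below all 4 fed ones.

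Actb had 3299 and 4309 RPKM in fed control libraries and 4641 and 3128 RPKM in starved ones. In knockout cells it had 4197 RPKM fed and 3548 RPKM starved, and in Thiamet-G cells 4688 RPKM fed and 3929 RPKM starved. The fed and starved values of Actb overlapped over most of their range. Actg1 had 3090.4 and 4105 RPKM in fed control libraries and 3298 and 3553 RPKM in starved ones. In knockout cells it had 2769 RPKM fed and 2965 RPKM starved, and in Thiamet-G cells 4582 RPKM fed and 2990.3 RPKM starved. These values overlapped too.

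Differences were tested on log2(RPKM + 1) after rescaling each library by its median ratio to the others, with limma across all transcripts and Benjamini-Hochberg adjustment. The eIF3-80S fit took starvation as additive to background, since 4 of the 6 groups have 1 library, and calls required an adjusted p under 0.05. Vim differed by -1.21 (SE 0.25, adjusted p from limma 0.168) and Tubb5 by -1.09 (SE 0.14, adjusted p from limma 0.0536). The median over all 7734 transcripts was -0.75 in this fit, in which a transcript that a file does not list enters as 0, although it may have reads. Among the 1679 transcripts listed in every library the median was 0.02, and the same differences had an adjusted p from limma of 0.0162 for Vim and 0.009 for Tubb5. That set leaves out every transcript that dropped off the list in any library. With limma-voom on recovered reads Vim differed by -1.11 (adjusted p 0.0126) and Tubb5 by -1.0 (adjusted p 0.00624), with 3.18% of transcripts called lower. Over all 7734 transcripts of the fit, 34.4% had a lower difference than Vim and 38.7% a lower one than Tubb5. Among the 1679 transcripts listed in every library these shares were 3.39% and 4.47%.

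The 95% confidence interval of the starved minus fed difference was -1.80 to -0.62 for Vim and -1.44 to -0.75 for Tubb5. For Actb it was -0.61 to 0.21 (adjusted p from limma 0.676) and for Actg1 -0.43 to -0.05 (adjusted p from limma 0.489), so the lower ends of both intervals lay above the estimates of Vim and Tubb5. The shallowest library, replicate 1 of starved control cells, held 37 reads of Vim and 36 of Tubb5, which gives a 95% Poisson interval of 357 to 698 RPKM for Vim and 362 to 716 RPKM for Tubb5, counting error only. Without that library, among the transcripts then listed in all 7 files, Vim differed by -1.01 (adjusted p from limma 0.0376) and Tubb5 by -1.01 (adjusted p from limma 0.0226), with 3.87% of transcripts called lower. Quantile normalization gave the actins the opposite sign, 0.38 for Actb and 0.42 for Actg1, and left Vim at -0.73 and Tubb5 at -0.69.

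Within each pair of libraries from 1 background, the rescaled log2 difference of Vim was -1.42 and -1.53 in control cells, -0.95 in knockout cells and -0.92 in Thiamet-G cells. That of Tubb5 was -1.21 and -1.12 in control cells, -1.04 in knockout cells and -0.99 in Thiamet-G cells. Both transcripts were thus lower in 4 of 4 pairs, as was Actg1 by smaller amounts given below, and for Tubb5 the 4 values lay close together. The share of all transcripts lower in every pair was not counted. For Actb the pair differences were 0.22 and -0.59 in control cells, -0.44 in knockout cells and 0.02 in Thiamet-G cells. For Actg1 they were -0.18 and -0.33 in control cells, -0.10 in knockout cells and -0.35 in Thiamet-G cells. Summing both actins gave a mean difference over the 4 pairs of -0.22 ± 0.21 (SD, n = 4). In control cells alone, where the fit of groups has 2 residual degrees of freedom and 0% of transcripts were called, the difference was -1.48 for Vim (adjusted p from limma 0.699) and -1.17 for Tubb5 (adjusted p from limma 0.180). The actins differed there by -0.18 for Actb and -0.25 for Actg1.

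**Figure D2:**
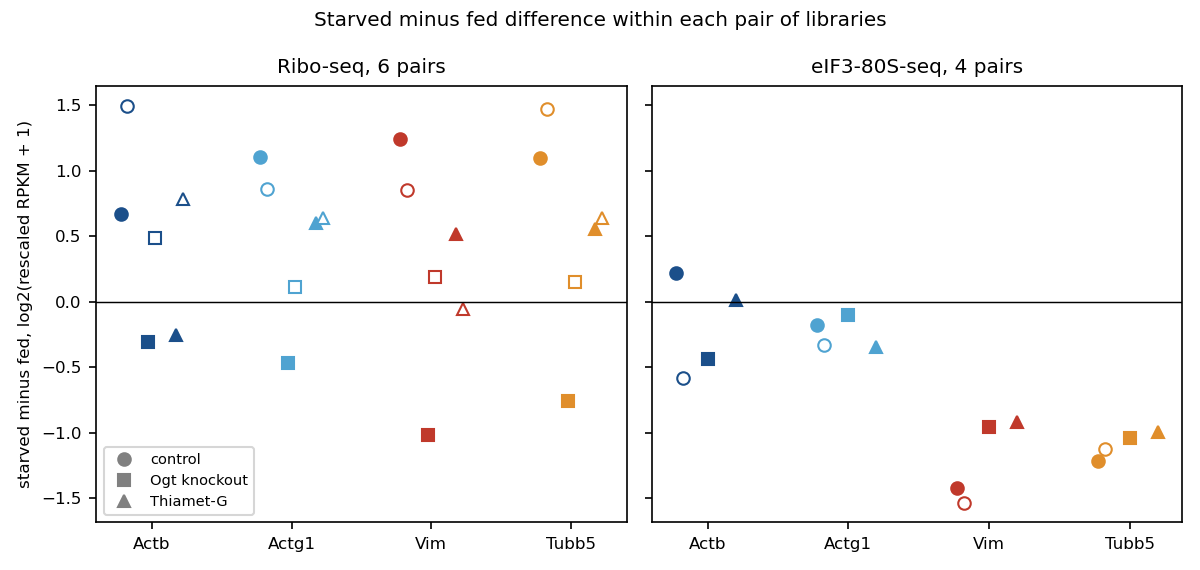
Starved minus fed difference of rescaled RPKM (log2 scale) for each transcript within pairs of libraries of the same background, in Ribo-seq (left, 6 pairs by file number, filled for number 1 and open for number 2) and eIF3-80S-seq (right, 4 pairs by title number, marked the same way). In eIF3-80S-seq all points of Vim and Tubb5 lie between -1.53 and -0.92, and those of the actins between -0.59 and 0.22.

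Ratios within a library need no scaling between libraries. The ratio of Actb to Tubb5 in eIF3-80S-seq was 2.85 to 3.49 in the 4 fed libraries and 4.42 to 8.97 in the 4 starved ones. The ratio of Actb to Vim was 1.80 to 2.93 in fed libraries and 3.47 to 9.16 in starved ones. Neither ratio overlapped between fed and starved libraries, and the highest starved value of each was that of the shallowest library. The ratio of Actb to the transcript was higher in all starved than in all fed libraries for 4.71% of the other 1678 transcripts listed in every eIF3-80S library, Vim and Tubb5 included. The ratio of Actb to Actg1, 1.02 to 1.52 fed and 0.88 to 1.41 starved, overlapped, as did that of Vim to Tubb5, 1.13 to 1.69 fed and 0.979 to 1.63 starved. In Ribo-seq all of these overlapped, with Actb to Tubb5 at 4.20 to 6.74 fed and 3.41 to 8.23 starved, and Actb to Vim at 1.98 to 4.52 fed and 2.49 to 7.82 starved.

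**Figure D3:**
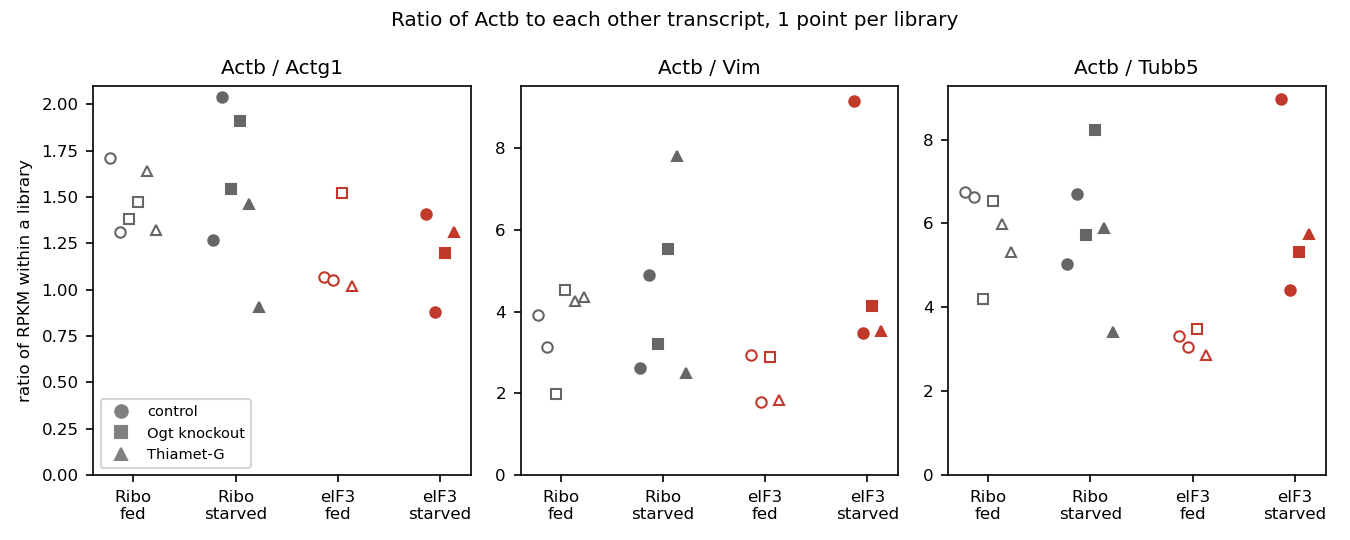
Ratio of Actb to Actg1, Vim and Tubb5 within each library (RPKM over RPKM, axes from 0), with 1 point per library, open for fed and filled for starved, grey for Ribo-seq and red for eIF3-80S-seq. In eIF3-80S-seq the starved points of Actb over Tubb5, 4.42 to 8.97, lie above all fed points, 2.85 to 3.49.

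In Ribo-seq, no difference between starved and fed cells passed the test for any of the 4 transcripts. Averaged over the backgrounds, the log2 differences were positive, at 0.48 for Actb, 0.47 for Actg1, 0.29 for Vim and 0.52 for Tubb5. In control cells all 4 were higher after starvation in both pairs, and in knockout cells the pairs went opposite ways. The level of a footprint depends on the amount of the message and on the ribosomes per message, which cannot be told apart here, and in pooled cells neither can fewer cells with the transcript and less of it per cell.

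Actb had 3213 and 1034 RPKM in fed control libraries and 5739 and 3044 RPKM in starved ones. Actg1 had 1883 and 789 RPKM fed and 4534 and 1494 RPKM starved. Vim had 821 and 329 RPKM fed and 2180 and 621 RPKM starved, and Tubb5 477 and 156 RPKM fed and 1141 and 453 RPKM starved. Replicate 1 exceeded replicate 2 for every transcript in both states, and fed and starved control libraries overlapped for every transcript. Within the pair of file number 1 the rescaled differences were 0.67 for Actb, 1.10 for Actg1, 1.24 for Vim and 1.09 for Tubb5. Within number 2 they were 1.49, 0.86, 0.85 and 1.47 in the same order. Of the 8360 transcripts, 29.9% were higher in both of these pairs. The fitted differences in control cells were 1.08 for Actb (SE 0.66), 0.98 for Actg1 (SE 0.68), 1.05 for Vim (SE 0.87) and 1.28 for Tubb5 (SE 0.74). Their adjusted p from limma lay between 0.792 and 0.855, with 0% of transcripts called. Over other settings, not all of them planned, 0 to 220 transcripts were called, and none of these 4. The lowest adjusted p from limma or limma-voom in those settings was 0.0767 for Actb and 0.0897 for Actg1. It was 0.0884 for Vim and 0.0519 for Tubb5.

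In knockout cells Actb had 6372 and 2634 RPKM fed and 5264 and 3628 RPKM starved. Actg1 had 4613 and 1787 RPKM fed and 3412 and 1903 RPKM starved. Vim had 3221 and 583 RPKM fed and 1634 and 656 RPKM starved, and Tubb5 had 1518 and 403 RPKM fed and 920.1 and 441 RPKM starved. In the pair of file number 1 all 4 were lower after starvation, by rescaled log2 differences of -0.31 for Actb, -0.47 for Actg1, -1.01 for Vim and -0.76 for Tubb5. In the pair of number 2 they were higher, at 0.48, 0.11, 0.19 and 0.15 in the same order. The fit gave 0.09 for Actb, -0.18 for Actg1, -0.41 for Vim and -0.30 for Tubb5, each with an adjusted p from limma of 1 and with 0% of transcripts called. The sign of each rested on single libraries. Actg1, Vim and Tubb5 turned positive without replicate 1 of the fed or replicate 2 of the starved knockout libraries (Vim 0.77 and 0.16), and Actb turned negative without replicate 2 of the fed or replicate 1 of the starved ones (-0.51 and -0.11).

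In Thiamet-G cells Actb had 2063 and 1220.5 RPKM fed and 2113 and 2062 RPKM starved. Actg1 had 1256 and 927 RPKM fed and 1445 and 2277 RPKM starved. Vim had 485 and 281 RPKM fed and 270.2 and 829 RPKM starved, and Tubb5 had 344 and 229 RPKM fed and 359 and 604 RPKM starved. Actg1 and Tubb5 were higher in both starved libraries than in either fed one, with rescaled pair differences of 0.60 and 0.64 for Actg1 and of 0.55 and 0.64 for Tubb5. The same held for 18.7% of the 8360 transcripts tested that were listed in every Ribo-seq library. The pairs disagreed for Actb, at -0.26 and 0.79, and for Vim, at 0.52 and -0.06. The fitted differences were 0.26 for Actb, 0.62 for Actg1, 0.23 for Vim and 0.60 for Tubb5, with an adjusted p from limma of 0.916 to 0.988 and 0% of transcripts called.

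The average over backgrounds had a 95% confidence interval of -0.35 to 1.31 for Actb, -0.38 to 1.32 for Actg1, -0.80 to 1.38 for Vim and -0.40 to 1.45 for Tubb5. The adjusted p from limma lay between 0.741 and 0.897, and 0.174% of the 10936 transcripts tested were called. The sign of Vim changed without replicate 2 of the fed knockout libraries, to -0.11, and without replicate 1 of the starved control libraries, to -0.02. The starvation response of knockout cells minus that of control cells was -0.997 for Actb, -1.16 for Actg1, -1.46 for Vim and -1.59 for Tubb5. For Thiamet-G cells minus control cells it was -0.82, -0.36, -0.82 and -0.69 in the same order. Every adjusted p from limma of these interactions was 1, with 0% of transcripts called, and the interval of the knockout interaction of Tubb5 ran from -3.85 to 0.68.

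Fed knockout cells had higher Ribo-seq levels of all 4 transcripts than fed control cells in both pairs of libraries, but none passed the test. The control libraries are those of the starvation comparison above, so both sets of values rest on shared libraries. The rescaled log2 differences within file numbers 1 and 2 were 0.74 and 1.30 for Actb and 1.04 and 1.13 for Actg1. They were 1.72 and 0.77 for Vim and 1.42 and 1.31 for Tubb5, and 29.7% of the 8360 transcripts were higher in both pairs. The fit gave 1.02 for Actb (SE 0.66), 1.08 for Actg1 (SE 0.68), 1.25 for Vim (SE 0.87) and 1.37 for Tubb5 (SE 0.74), each with an adjusted p from limma of 1 and 0% of transcripts called. In starved cells the knockout differed from control by 0.02 for Actb, -0.08 for Actg1, -0.21 for Vim and -0.22 for Tubb5, again with 0% called, and for the first 3 of these transcripts the pairs had opposite signs.

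Thiamet-G cells differed from control cells in the fed state by -0.22 for Actb, -0.19 for Actg1, -0.51 for Vim and 0.03 for Tubb5. Of these, only Vim had the same sign in both pairs, at -0.84 and -0.18. In the starved state the differences were -1.03 for Actb, -0.55 for Actg1, -1.33 for Vim and -0.66 for Tubb5. There Actb was lower in both pairs, at -1.65 and -0.42, as were Vim, at -1.57 and -1.09, and Tubb5, at -1.09 and -0.23. The pairs of Actg1 had opposite signs, at -1.17 and 0.06. The share of all transcripts lower in both pairs was not counted. The adjusted p from limma was 1 throughout and 0% of transcripts were called in either state. Over the 10 comparisons in which 0 transcripts were called (9 in Ribo-seq and 1 in eIF3-80S-seq), 51 to 744 transcripts had an unadjusted p under 0.05 in limma, and limma-voom called 0 in each as well, with 12 to 1119 at an unadjusted p under 0.05.

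**Figure D4:**
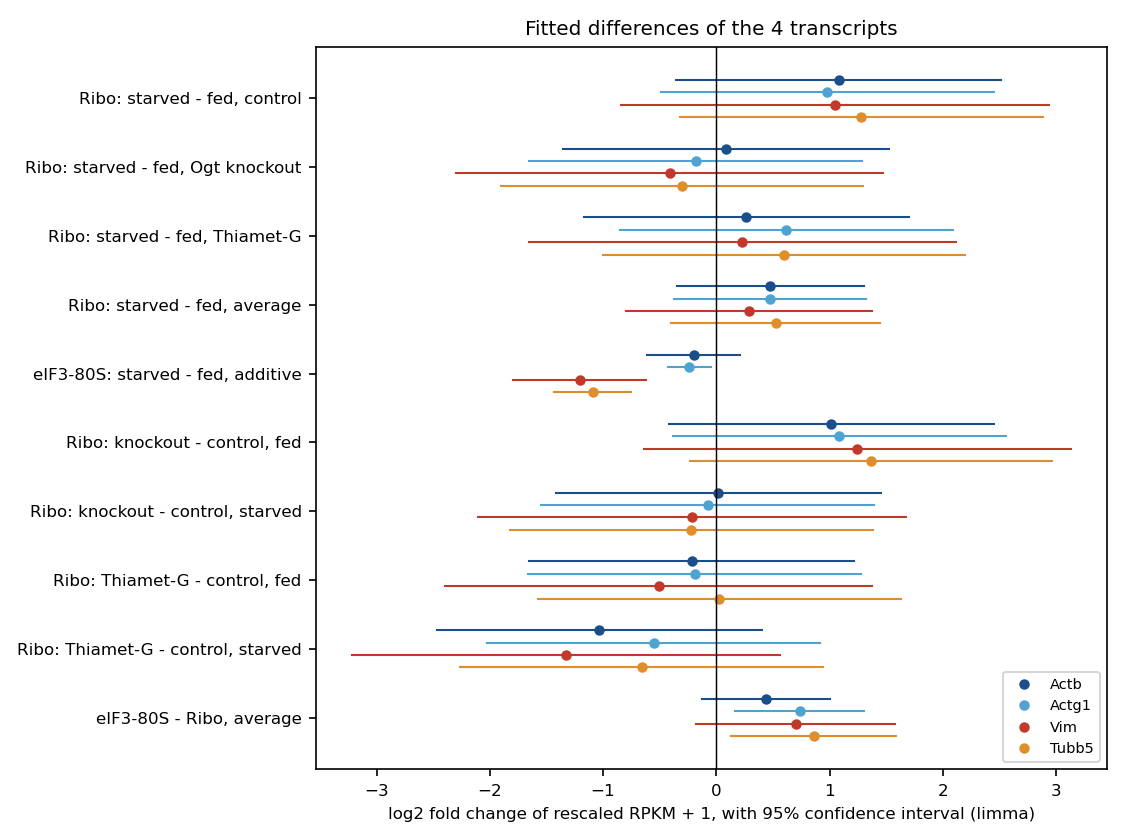
Fitted log2 fold change (points) with its 95% confidence interval (lines) from limma for each transcript in 10 comparisons. The intervals of Vim and Tubb5 for starvation in eIF3-80S-seq, which end at -0.62 and -0.75, exclude 0. So does that of Actg1, which ends at -0.05. The Ribo-seq intervals all include 0. Intervals are not adjusted for the number of transcripts tested, and no transcript shown passed the test of that eIF3-80S fit.

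Set against Ribo-seq over the 6 conditions, Actg1 and Tubb5 were higher in eIF3-80S-seq, and Actb and Vim did not pass the test with all libraries. On values rescaled over all 20 libraries, the log2 difference was 0.74 for Actg1 (SE 0.26, adjusted p from limma 0.0309) and 0.86 for Tubb5 (SE 0.33, adjusted p from limma 0.0455). It was 0.44 for Actb (SE 0.26, adjusted p from limma 0.165) and 0.70 for Vim (SE 0.40, adjusted p from limma 0.154). Without replicate 1 of the fed control Ribo-seq libraries Actb passed too, at 0.58 (adjusted p from limma 0.0369). Of the 10542 transcripts tested, 55.8% were called and 3.17% were called higher, and the median was -1.53. Among the 1675 transcripts listed in all 20 libraries the median was -0.03 and 21.3% were called higher, Actg1 (adjusted p from limma 0.0479) and Tubb5 (adjusted p from limma 0.0373) included. Both calls were lost with limma-voom, where the adjusted p was 0.145 for Actg1 and 0.239 for Tubb5. Both were also lost without any 1 of the 6 Ribo-seq libraries with file number 2 or of the 2 fed control eIF3-80S libraries, where the adjusted p reached 0.0567 for Actg1 and 0.0821 for Tubb5. The call of Tubb5 was lost as well without the fed (adjusted p 0.0507) or the starved (adjusted p 0.0528) Thiamet-G Ribo-seq library with file number 1. Fragments of 20 to 70 nt were cut from the gel for eIF3-80S-seq and of 25 to 35 nt for Ribo-seq, so the ribosome fraction and the fragment size cannot be told apart.

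For Actb, Vim and Tubb5 the signed difference, second assay minus Ribo-seq, was higher in fed than in starved cells in each background. For Actg1 this held in control and Thiamet-G cells. In knockout cells the starved values of Actb and Vim were negative and larger in size than the fed ones. Knockout and Thiamet-G cells had 1 fed and 1 starved library each in the second assay. The share of all transcripts with this pattern was not counted. In fed control cells the difference was 0.79 for Actb, 1.29 for Actg1, 1.40 for Vim and 1.86 for Tubb5. In starved control cells it was -0.19, 0.34, -0.84 and -0.31 in the same order. In knockout cells it was 0.11 for Actb, 0.02 for Actg1, 0.15 for Vim and 0.69 for Tubb5 fed, and -0.38, 0.14, -0.35 and -0.01 starved. In Thiamet-G cells it was 1.21, 1.73, 2.43 and 2.19 fed, and 1.09, 0.90, 1.41 and 0.73 starved, in the same order. The difference between the assays' starvation responses was -0.53 for Actb, -0.56 for Actg1, -1.25 for Vim and -1.44 for Tubb5. Its adjusted p from limma was 0.568 for Tubb5 and 0.757 to 0.900 for the others, with 0.617% of transcripts called, so the responses of the assays were not shown to differ for any of the 4. The 95% confidence interval of this difference was -2.90 to 0.02 for Tubb5.

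Over the 12 Ribo-seq libraries the correlations among the 4 transcripts were 0.87 to 0.98. Likeness was the Pearson correlation of log2(rescaled RPKM + 1) among the 6897 transcripts that were listed in all 12 files with a mean of at least 10 RPKM. Actg1 and Tubb5 were each other's most alike transcript, at 0.98, and at 0.97 once the mean of each file number was removed. For Actb the most alike was ENSMUST00000026743, at 0.94, followed by Actg1 and Tubb5 in ranks 2 and 3, with Vim in rank 26. For Vim it was ENSMUST00000096240, at 0.95, with Actg1 in rank 4, Tubb5 in rank 5 and Actb in rank 41. All of these points share their libraries, depths and scaling. Over the 8 eIF3-80S libraries the pairing differed, with Vim and Tubb5 at 0.95, Actg1 at 0.65 with Vim and 0.63 with Tubb5, and Actb at 0.35 to 0.46 with the other 3. Whether these correlations differ between the assays was not tested.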

How the data were processed

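The data are ribosome-protected fragments from 12 Ribo-seq and 8 eIF3-80S libraries. The authors deposited RPKM per Ensembl transcript, 1 file per library. Tools listed in the submitters' processing notes are cutadapt and STAR, with GRCm38 as genome build, while the counter, the annotation and any filter were not given in the sources used here. Symbols came from the list that defined the members, since 0 identifiers matched the gene table, so the planned cytoskeleton and marker lists are not used here. The members and lists were chosen with earlier results of these data known.

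Whole reads were recovered from ratios of RPKM between libraries that are fractions of whole numbers (relative tolerance 1e-09). This worked for 12249 transcripts, with 99.86% of lengths multiples of 3. No library was identical to another. Each library was divided by its median ratio to the others, taken over the transcripts that all files of a fit share, and unlisted transcripts entered as 0. A mean of 1 RPKM or more was required. Tests were two-sided and used limma 3.58.1 (lmFit, and eBayes with a trend) in R 4.3.3 on log2(RPKM + 1), a scale that understates changes of low transcripts. Calls required an adjusted p under 0.05 after Benjamini-Hochberg adjustment over every transcript tested. Alternatives changed the pseudocount, filter, scaling and test, blocked on the replicate number, or left out 1 library. Named genes were the members and, for each, the transcript most like it in Ribo-seq. Recovery and fits were tested on simulated data. Poisson intervals cover counting error only. Figures were drawn with matplotlib 3.10.9.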

Additional observations from a re-analysis of the deposited data

Results flagged for a closer look

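Among 32 sets of fed or starved libraries of an assay that were examined for a library far from the rest, 5 held one. Chance gives about 1 in 20 for a set. The sets share libraries and transcripts, so the count cannot be weighed against that rate. In the 6 fed Ribo-seq libraries, replicate 1 of the knockout was the highest and far from the next for Actg1 (4613.4 RPKM), Vim (3221.4 RPKM) and Tubb5 (1517.8 RPKM), with 0.714, 0.816 and 0.765 of the range between it and the nearest library. In the 4 fed eIF3-80S libraries, the ratio of Actb to Actg1 was the highest in knockout cells, at 1.52. In the 4 starved eIF3-80S libraries, the ratio of Actb to Vim was the highest in replicate 1 of control cells, at 9.16, the library with 37 reads of Vim.

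In control cells both Ribo-seq pairs were higher and both eIF3-80S pairs lower after starvation for 3 transcripts, namely Actg1, Vim and Tubb5. How many of all transcripts share this pattern was not counted, so it cannot be called unusual. Over the Ribo-seq libraries these 3 correlated with each other at 0.94 to 0.98, so they are not separate observations. The mean eIF3-80S difference minus the mean Ribo-seq difference was -1.23 for Actg1, -2.53 for Vim and -2.45 for Tubb5 on the log2 scale of rescaled RPKM. This difference was not tested in control cells alone. The test averaged over backgrounds did not pass for any of them, with an adjusted p from limma of 0.892 for Actg1, 0.757 for Vim and 0.568 for Tubb5. On RPKM as deposited, Actg1 was 0.09 higher in the first eIF3-80S pair.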

How the results depend on the processing

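Over 60 results and 1208 combinations of a result with an alternative, 1132 kept both direction and side of the threshold, 22 lost a call, 10 gained one and 44 changed sign. Values are log2 differences on the scale of the report.

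Starvation in eIF3-80S-seq, fitted additively, became a call for Vim among transcripts listed everywhere (-1.21) and with limma-voom (-1.11), and for Tubb5 with a pseudocount of 0.1 (-1.09), among transcripts listed everywhere (-1.09) and with limma-voom (-1.0). Among transcripts listed everywhere and without replicate 1 of the starved control libraries, a setting chosen after seeing the data, Vim and Tubb5 were called at -1.01 each. Quantile normalization reversed Actb to 0.38 and Actg1 to 0.42. In control cells alone Actb reversed on RPKM as deposited (0.0152), with quantile normalization (0.38) and with limma-voom (0.0166), and Actg1 reversed with quantile normalization (0.36). Without 1 library Actb ranged from -0.55 to 0.19 there.

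For eIF3-80S-seq against Ribo-seq, quantile normalization made calls of Actb (1.16) and Vim (1.27), and Actb was also called without replicate 1 of the fed control Ribo-seq libraries (0.58). The calls of Actg1 and Tubb5 were lost without the filter on low values (0.74 and 0.86) and with limma-voom (0.81 and 0.84). Without 1 library Actb ranged from 0.28 to 0.58, Actg1 from 0.61 to 0.85 and Tubb5 from 0.71 to 1.01. Groups with a single eIF3-80S library could not be left out of the fits over all 20 libraries.

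In Ribo-seq, quantile normalization turned Actg1 in starved against fed knockout cells to 0.061. Leaving out 1 library gave, for starvation averaged over backgrounds, -0.11 to 0.69 for Vim. For starvation in knockout cells it gave -0.51 to 0.68 for Actb, -0.82 to 0.46 for Actg1, -1.60 to 0.77 for Vim and -1.22 to 0.61 for Tubb5, and in Thiamet-G cells -0.086 to 0.63 for Actb and -0.44 to 0.89 for Vim. For knockout against control in starved cells it gave -0.44 to 0.49 for Actb, -0.88 to 0.73 for Actg1, -1.12 to 0.70 for Vim and -0.89 to 0.45 for Tubb5. For Thiamet-G against control it gave, in fed cells, -1.09 to 0.66 for Actb, -0.88 to 0.50 for Actg1, -1.23 to 0.21 for Vim and -0.84 to 0.89 for Tubb5, and in starved cells -1.35 to 0.26 for Actg1 and -1.32 to 0.0177 for Tubb5. For the Thiamet-G interaction it gave -1.70 to 0.0619 for Actb, -1.15 to 0.44 for Actg1, -1.72 to 0.0891 for Vim and -1.55 to 0.18 for Tubb5. The cause of these changes was not tested.

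Counts of called transcripts moved too. Starvation averaged over backgrounds in Ribo-seq called 19 transcripts, with 0 to 380 over other settings and 0 to 25 without 1 library. The additive eIF3-80S fit called 22, with 2 to 185 over other settings and 0 to 2 without 1 library. In control cells eIF3-80S-seq called 0, with up to 112 and up to 1368. Starvation in control cells in Ribo-seq called 0, with up to 220 over other settings. The comparison of assays called 5878, with 608 to 6234 and 5496 to 6982, and the difference between the assays' starvation responses called 65, with 0 to 312 and 0 to 714.

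The tests of the report use no replicate block. Its pair differences within a file number set apart the 2 kinds of Ribo-seq files and are descriptions, since the labels do not say what a number shares. Deviations of libraries with the same file number correlated above 0.1 in 14 of 15 pairs of Ribo-seq groups (0.0803 to 0.445), and with the same title number in 9 of 15. The replicate block with file numbers moved the count of Ribo-seq starvation calls from 19 to 100, and to 380 when joined with limma-voom, while the block with title numbers gave 7. With the file-number block, the average starvation difference was 0.48 for Actb and 0.52 for Tubb5, with an adjusted p from limma of 0.492 and 0.407. Joined with limma-voom, that block turned Tubb5 in fed Thiamet-G against fed control cells to -0.021. With the title block, Vim in eIF3-80S control cells differed by -1.50 and Tubb5 by -1.19, each with an adjusted p from limma of 0.292.

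Depth and the number of libraries both limit eIF3-80S-seq: its shallowest library held 36 reads of Tubb5, and 4 of its 6 groups have 1 library.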
